A study of Mus musculus with 24 samples.

Results

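The 37 genes of the mouse mitochondrial chromosome (chromosome M in the GENCODE M21 annotation of GRCm38, symbols beginning mt-) were followed through 24 RNA sequencing libraries of primary cortical neurons. They were taken by position alone, so every gene annotated on chromosome M is included, out of 55177 genes matched in the deposited tables. The set holds 13 protein-coding genes, 2 rRNA genes and 22 tRNA genes, and 9 of the 37 lie on the minus strand of the reference: mt-Nd6 and 8 tRNA genes. All neurons came from cortices of mouse embryos at embryonic day 16.5, and the protocol treats the cortex of each embryo as a biological replicate. Before harvest all cultures were silenced overnight with 1 µM tetrodotoxin, a sodium channel blocker, and 100 µM D-AP5, an NMDA receptor antagonist. KCl libraries were then depolarised with 50 mM KCl for 30 min, and rest libraries were not.

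The libraries form 2 kinds that were kept apart throughout. Poly(A)-selected libraries came from wild-type neurons at day 7 in vitro (DIV7) exposed to 0.1% DMSO, with 2 rest and 2 KCl libraries. The other 20 libraries were total RNA depleted of rRNA, from neurons at DIV18 that carried CRISPR guide RNAs and, in part, an added-back construct. Control neurons with non-targeting guides (NT) gave 2 rest and 2 KCl libraries, and Smarcc2 knockout neurons with an empty vector (KO+vector) gave 3 and 3. Smarcc2 encodes a core subunit of the BAF chromatin remodelling complex. Knockout neurons given wild-type Smarcc2 (KO+WT) gave 2 rest and 3 KCl libraries, those given the S586E form (KO+S586E) gave 3 rest libraries, and those given the S586A form (KO+S586A) gave 2 KCl libraries. The 2 kinds of library differ in RNA selection, age and construct, which cannot be told apart, so DIV7 and DIV18 values are set side by side and not tested against each other.

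Chromosome M is a small circular DNA present in many copies in each mitochondrion. Both of its strands are transcribed by the polymerase Polrmt into long precursors, and the tRNAs that punctuate them are excised to release the rRNAs and mRNAs. The 13 mRNAs encode core subunits of the respiratory chain: 7 of complex I (mt-Nd1 to mt-Nd6 and mt-Nd4l), mt-Cytb of complex III, 3 of complex IV (mt-Co1, mt-Co2, mt-Co3) and 2 of the ATP synthase (mt-Atp6, mt-Atp8), while mt-Rnr1 and mt-Rnr2 encode the 12S and 16S rRNAs of the mitochondrial ribosome. Most mitochondrial mRNAs carry short poly(A) tails; mt-Nd6 is known to lack a stable one. In poly(A)-selected libraries the amount of an RNA and the length of its tail therefore cannot be told apart. In the DIV18 libraries how completely the mitochondrial rRNAs were removed was not measured. In bulk cultures, fewer cells of a type and less RNA per cell also cannot be told apart.

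The genes sit nearly end to end. On chromosome M of GRCm38, mt-Rnr1 spans 70 to 1024, mt-Rnr2 1094 to 2675, mt-Nd1 2751 to 3707, mt-Nd2 3914 to 4951, mt-Co1 5328 to 6872, mt-Co2 7013 to 7696 and mt-Co3 8607 to 9390. The next stretch holds mt-Nd3 at 9459 to 9806, mt-Nd5 at 11742 to 13565, mt-Nd6 at 13552 to 14070 on the minus strand and mt-Cytb at 14145 to 15288. A pair of bicistronic mRNAs have reading frames that overlap, so their reads are shared between genes by estimation. These are mt-Atp8 (7766 to 7969) with mt-Atp6 (7927 to 8607), which share 43 bases, and mt-Nd4l (9877 to 10173) with mt-Nd4 (10167 to 11544), which share 7. Both stretches are given here from the GENCODE M21 transcripts, plus strand of chromosome M, with the shared bases in capitals; each shared run opens with the ATG of the downstream gene.
mt-Atp8 and mt-Atp6, chrM:7897-7999: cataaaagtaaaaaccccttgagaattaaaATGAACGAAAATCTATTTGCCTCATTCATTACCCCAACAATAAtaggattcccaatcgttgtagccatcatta
mt-Nd4l and mt-Nd4, chrM:10137-10203: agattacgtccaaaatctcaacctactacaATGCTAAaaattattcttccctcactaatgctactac

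Some of these genes have nuclear copies that can take up their reads. A search of the GENCODE M21 transcripts found 16 annotated nuclear copies for 11 of the 37 genes (at least 90% identity over at least 100 aligned bases and 50% of the copy), of which 5 were identical to their mitochondrial gene over the whole match. On chromosome 1 of GRCm38 a run of them lies in a block on the minus strand: Gm28439 (24611535 to 24612410, a copy of mt-Nd4), Gm10222 (24612407 to 24612700, mt-Nd4l), Gm28438 (24612775 to 24613119, mt-Nd3), Gm28437 (24613189 to 24613971, mt-Co3), Gm10925 (24613974 to 24614651, mt-Atp6), Gm28661 (24614885 to 24615565, mt-Co2) and Gm29216 (24615706 to 24616197, mt-Co1). The order of the block is that of the mitochondrial genes. Counting 31-base windows of each transcript, mt-Co2 had 0 of 654 windows that occurred in no other transcript, mt-Co3 1 of 754, mt-Atp6 3 of 651, mt-Nd4l 3 of 267 and mt-Nd3 6 of 318. By contrast mt-Rnr1 was unique in 925 of 925 windows, mt-Nd1 in 927 of 927, mt-Rnr2 in 1510 of 1552 and mt-Cytb in 1041 of 1114, while mt-Co1 was unique in 547 of 1515 and mt-Nd4 in 502 of 1348.

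These sequences show how little separates gene and copy. Over the 345 bases that align between mt-Nd3 and Gm28438 the only difference was T3C, and over the 483 bases that align between mt-Co1 and Gm29216 the only difference was A1066T, counted from 1 at the 5′ end of the mitochondrial transcript; the differing base is in capitals. For the other pairs the last 60 bases of each transcript are shown, with the bases beyond the annotated end of the copy in capitals. As annotated, the copies end just short of the stop codon of mt-Co2 and mt-Atp6 and of the final T of mt-Co3. The stop codon of mt-Co3 is completed by polyadenylation. The nuclear sequence beyond these annotated ends was not examined.
mt-Nd3 (1 to 33): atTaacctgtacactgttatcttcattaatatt
Gm28438: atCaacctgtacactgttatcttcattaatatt
mt-Co1 (1063 to 1096): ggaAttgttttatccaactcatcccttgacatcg
Gm29216: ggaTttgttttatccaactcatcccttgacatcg
mt-Co2 (625 to 684): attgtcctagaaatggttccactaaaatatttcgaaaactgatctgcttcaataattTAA
Gm28661 (622 to 681): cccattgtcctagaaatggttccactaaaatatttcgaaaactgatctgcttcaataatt
mt-Co3 (725 to 784): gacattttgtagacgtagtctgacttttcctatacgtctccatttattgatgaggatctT
Gm28437 (724 to 783): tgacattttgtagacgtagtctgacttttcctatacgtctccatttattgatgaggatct
mt-Atp6 (622 to 681): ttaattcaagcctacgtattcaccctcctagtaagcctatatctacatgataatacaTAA
Gm10925 (619 to 678): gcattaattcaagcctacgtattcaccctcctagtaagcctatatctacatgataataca

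The deposited estimates divided reads between gene and copy very differently in the 2 kinds of library. Gm28661 received 31.1% to 39.2% of the counts of the mt-Co2 pair in the 4 DIV7 libraries and 70.6% to 89.8% in the 20 DIV18 libraries. Gm28437 received 0.00178% to 0.0192% of the mt-Co3 pair at DIV7 and 17.0% to 52.4% at DIV18, and Gm28438 received 15.5% to 28.6% of the mt-Nd3 pair at DIV7 and 44.6% to 74.3% at DIV18. For Gm10925 and mt-Atp6 the order was the other way, with 6.96% to 15.3% at DIV7 and 0.105% to 2.64% at DIV18. Whether any of these reads came from a nuclear transcript could not be told from estimates over sequences this alike. Differences in mt-Co2, mt-Co3 and mt-Nd3 that the text turns on are therefore given as deposited and with the copies added to their gene.

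**Figure D1:**
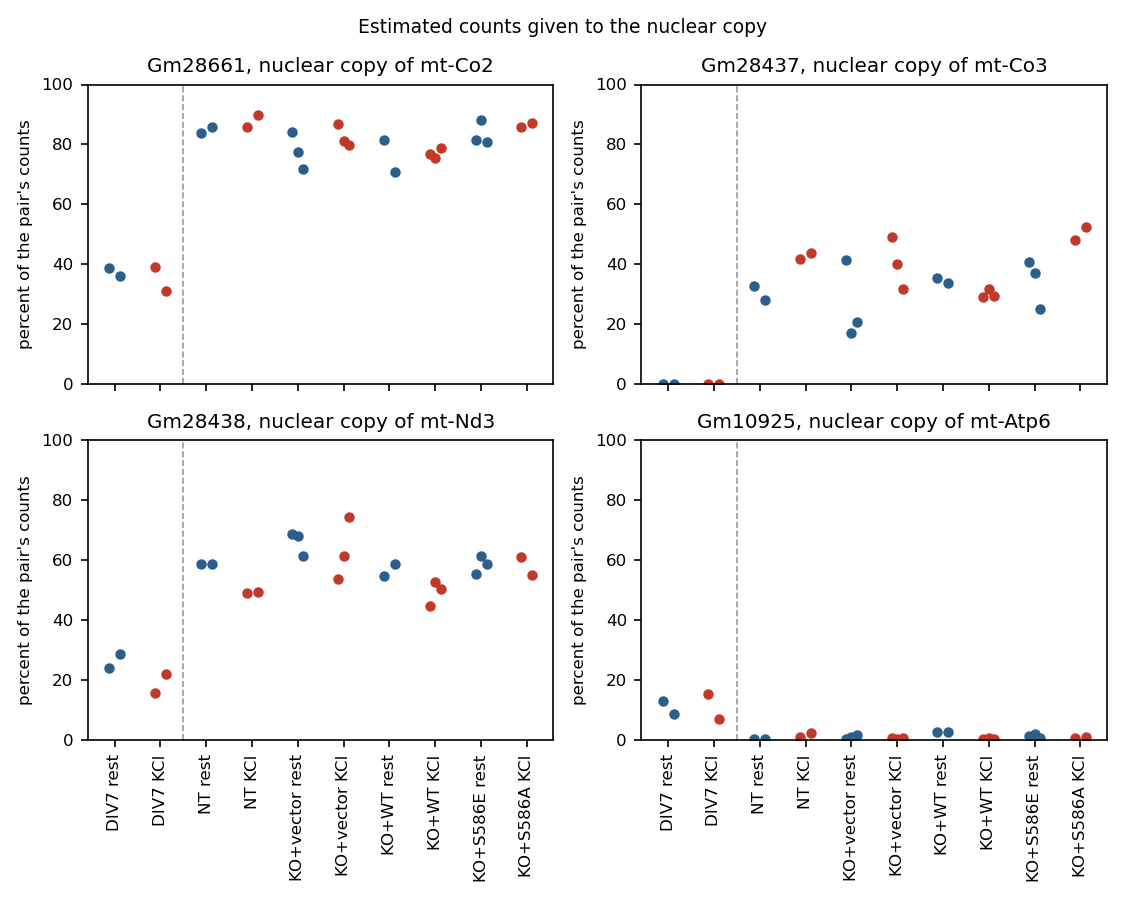
Percent of the estimated counts of a gene and its nuclear copy that was given to the copy (y axis), for the Gm28661, Gm28437, Gm28438 and Gm10925 pairs, with each point a library and the groups along the x axis. The DIV18 libraries lie above the DIV7 libraries for the copies of mt-Co2, mt-Co3 and mt-Nd3 and below them for the copy of mt-Atp6.

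Library totals were 24536056 to 30135576 estimated counts at DIV7 and 14510199 to 24024959 at DIV18. Levels are given as TMM-normalised CPM, counts scaled to the size of the library, and fold changes and adjusted p-values come from edgeR's quasi-likelihood test fitted over all genes, with a gene called at an adjusted p under 0.05. Smarcc2 was at 251 ± 19.96 CPM (SD, n = 2) in NT rest, 53.6 ± 9.12 (n = 3) in KO+vector rest and 786 ± 42.6 (n = 2) in KO+WT rest, and the added-back forms were at 1225 ± 57.1 (n = 3) for KO+S586E and 1322 ± 25.9 (n = 2) for KO+S586A. Fos, an activity-induced gene, was at 3.65 to 4.47 CPM at rest and 598 to 618 after KCl at DIV7, and at 2.75 to 8.34 and 32.7 to 197 at DIV18. Summed neuronal markers were at 3604 to 3690 CPM at DIV7 and 2843 to 3771 at DIV18. The astrocyte list was at 497 to 512 CPM in NT rest against 118 to 429 in KO+vector rest. The microglial list was low but also differed, at 6.84 to 7.99 CPM in NT rest against 3.80 to 3.82 in KO+vector rest. Over all libraries the microglial and the fibroblast and vessel lists lay between 1.73 and 11.9 CPM. Summed oligodendrocyte-lineage markers were at 169 to 172 CPM in NT rest against 130 to 140 in KO+vector rest, a sum carried by Mbp, a myelin gene, at 121 and 89.8 CPM against 124, 129 and 125. Markers of the precursors in that list were much lower in KO+vector rest than in NT rest. Pdgfra was at 19.7 and 30.3 CPM in NT rest and 0.916, 1.00 and 0.0637 in KO+vector rest. Cspg4 was at 13.9 and 21.3 against 3.02, 3.27 and 2.04, and Sox10 at 2.76 and 8.40 against 0 in all 3. After KCl the NT libraries varied: Pdgfra had 30 and 253 counts in NT, 17, 9 and 12 in KO+vector and 73, 69 and 11 in KO+WT. No listed marker was at 0 in all 24 libraries, and the part of these other cell types in the results was not tested.

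Mitochondrial mRNAs made up a few percent of every library. At DIV7 they held 2.93% and 2.78% of the counts in the rest libraries and 2.73% and 2.71% in the KCl libraries. At DIV18 they held between 2.96% and 5.39%. Counting error was small beside these differences: the 95% Wilson interval of the highest share, in KO+vector rest library 3, was 5.38% to 5.41%, an interval that covers counting error only, since the reads carried no molecular identifiers.

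At DIV18 the spread between libraries of a group was as wide as any difference between groups. The mRNA share was 3.69% ± 0.227 (SD, n = 2) in NT rest and 3.54% ± 0.101 (n = 2) in NT KCl. It was 4.02% ± 1.23 (n = 3) in KO+vector rest, where the libraries stood at 3.63%, 3.03% and 5.39%, and 3.53% ± 0.327 (n = 3) in KO+vector KCl. The lowest and the highest resting share therefore both belong to KO+vector. The library with the highest share, library 3, also had the lowest summed astrocyte markers of all 24, 118 CPM against 429 and 368 in libraries 1 and 2. The share was 3.81% ± 0.250 (n = 2) in KO+WT rest and 3.95% ± 0.798 (n = 3) in KO+WT KCl, where the libraries stood at 3.86%, 3.20% and 4.79%. Here too the library with the highest share had the lowest astrocyte sum of its group, 172 CPM against 249 and 431. The same order held in the other DIV18 groups except NT rest and KO+vector KCl. NT rest library 1 had both the higher share, 3.85% against 3.53%, and the higher sum, 512 against 497 CPM. KO+vector KCl library 3 had the highest share, 3.81%, with a sum of 211 CPM against 190 and 263. The part of astrocytes in these shares was not tested. In each DIV18 group that has a library 3, library 3 also had the highest share, at 4.32% in KO+S586E. NT, KO+WT at rest and KO+S586A have no library 3. Library numbers are therefore not balanced over the groups, and their part in the shares was not tested. The mRNA share was 3.85% ± 0.430 (n = 3) in KO+S586E at rest and 3.40% ± 0.624 (n = 2) in KO+S586A after KCl. Every DIV18 group mean lay within the range of the 3 KO+vector rest libraries.

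The rRNAs followed the library kind. They held 0.116% and 0.115% of the counts in the DIV7 rest libraries and 0.172% and 0.155% in the DIV7 KCl libraries, so that all KCl libraries lay above all rest libraries. At DIV18 they held 1.15% to 2.96%, with the lowest share in KO+vector rest library 2 and the highest in KO+S586A KCl library 2. In NT the share was 1.93% and 2.01% at rest and 1.92% and 2.77% after KCl, and the groups overlapped.

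**Figure D2:**
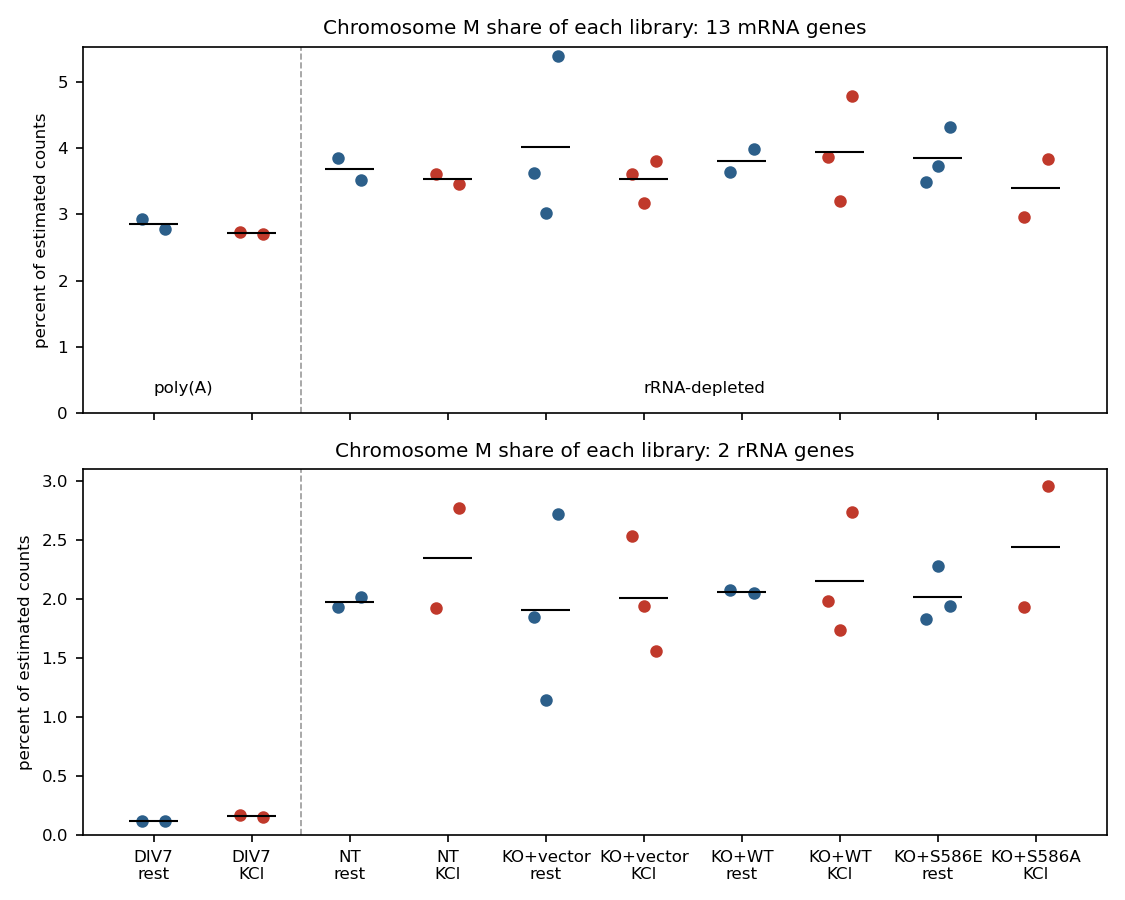
Percent of each library's estimated counts on chromosome M mRNAs and rRNAs (y axes), with each point a library and each bar a group mean. KO+vector rest library 3 has the highest mRNA share, 5.39%, and DIV7 libraries have rRNA shares of at most 0.172%.

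Among the 13 mRNAs, levels were compared per length as a share of their summed TPM, a level that is scaled for transcript length. mt-Co1, the catalytic subunit of cytochrome c oxidase, ranked highest in every library as deposited, with a mean of 14.3% at DIV7 and 22.1% at DIV18. mt-Atp6 was at 11.3% and 14.6%, or 11.7% and 12.7% with its copy added, and mt-Co3 at 11.3% and 7.84%. At the low end stood mt-Nd6 with 2.21% and mt-Nd3 with 2.88% at DIV7, and mt-Nd3 with 0.892% and mt-Co2 with 2.23% at DIV18. The other complex I mRNAs were at 8.02% and 10.0% for mt-Nd4l, 6.50% and 5.84% for mt-Nd1, 5.57% and 6.89% for mt-Nd4, 4.38% and 4.65% for mt-Nd2 and 3.59% and 5.09% for mt-Nd5. mt-Cytb was at 10.6% and 6.96%, and mt-Atp8 at 9.37% and 8.26%. TPM divides by an estimated effective length, which was 50.8 to 67.0 bases for mt-Atp8, a transcript of 204 bases. The TPM shares of short transcripts depend on that estimate. Of the mRNA counts mt-Atp8 held 0.703% to 0.745% at DIV7 and 0.417% to 0.882% at DIV18. For mt-Nd4l these were 1.25% to 1.36% and 1.58% to 1.88%.

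The place of mt-Co2 in this order depended on its copy. As deposited it held 10.0% of the mRNA TPM at DIV7 and 2.23% at DIV18. With Gm28661 added it held 14.6% and 10.6%, and it then passed mt-Co1 (13.2%) at DIV7 but not at DIV18 (19.1%). mt-Nd3 moved from 2.88% to 3.47% at DIV7 and from 0.892% to 1.83% at DIV18, and mt-Co3 from 11.3% to 10.5% and from 7.84% to 10.6%.

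mt-Nd6, the mRNA from the other strand, was compared with mt-Nd5, the gene whose end it overlaps by 14 bases. The TPM of mt-Nd6 divided by that of mt-Nd5 was 0.579 to 0.663 in the poly(A)-selected libraries and 0.790 to 1.01 in the DIV18 libraries, with no overlap. As no strand setting of the counting is given in the sources used here, reads of mt-Nd6 and of RNA from the opposite strand cannot be told apart in this ratio.

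**Figure D3:**
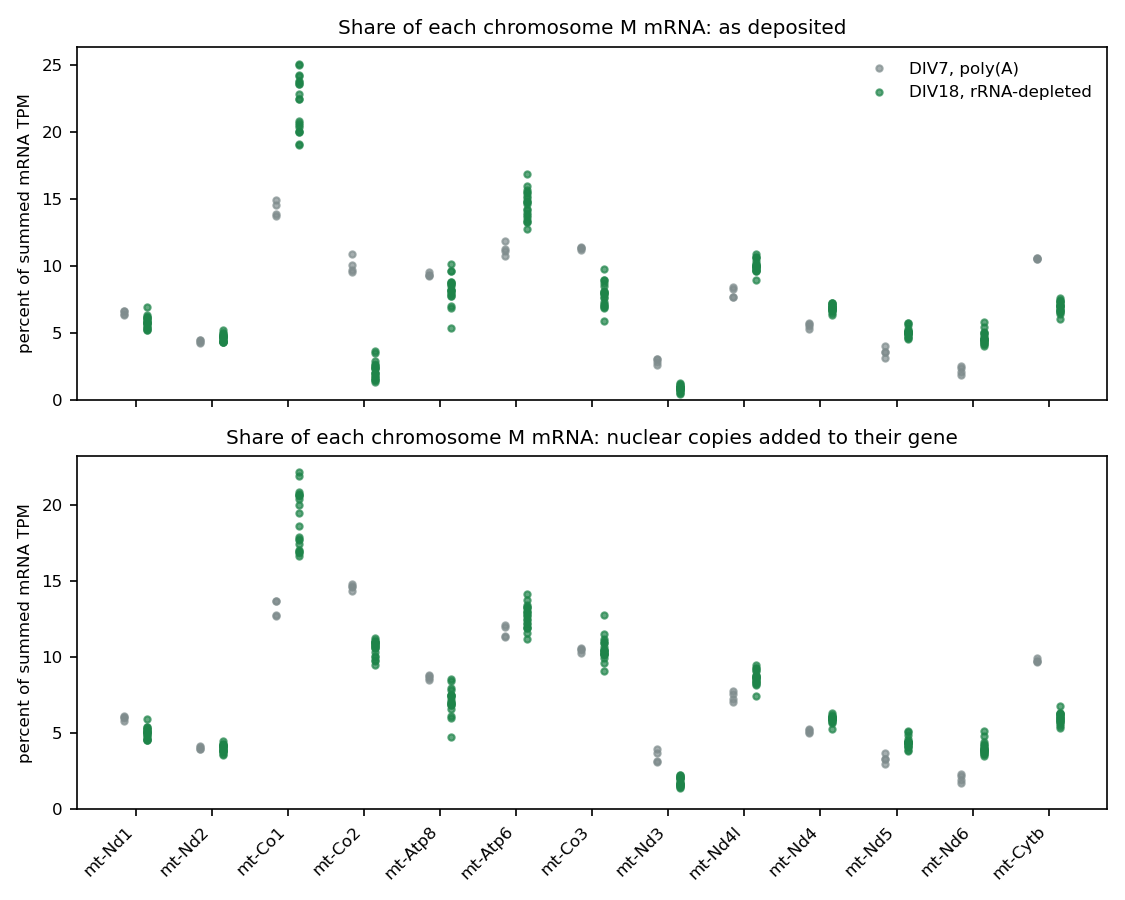
Percent of the summed mRNA TPM held by each of the 13 mRNAs, as deposited and with nuclear copies added; each point is a library. As deposited, mt-Co1 ranks highest in all libraries and mt-Co2 falls from 10.0% at DIV7 to 2.23% at DIV18; with the copy added it is at 14.6% and 10.6%.

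Among the mRNAs the share of mt-Nd3, a complex I subunit, was lower after KCl in each culture once its copy was added. With copies added, mt-Nd3 held 3.68% and 3.95% of the mRNA TPM at rest and 3.09% and 3.17% after KCl at DIV7. In NT it held 2.25% and 2.18% at rest and 1.69% and 2.11% after KCl. In KO+vector it held 2.08%, 1.55% and 1.81% at rest and 1.53%, 1.37% and 1.48% after KCl, and in KO+WT 2.28% and 2.05% at rest and 1.61%, 1.67% and 1.65% after KCl. In each of these 4 cultures every KCl library was below every rest library, by a narrow margin in NT and KO+vector. The share was 1.95% to 2.14% in KO+S586E at rest and 1.57% and 1.63% in KO+S586A after KCl, constructs with libraries in a single state. As deposited, without the copy, only the DIV7 groups were separate, at 3.03% and 3.03% against 2.83% and 2.63%, and the DIV18 groups overlapped. This pattern was picked out after the shares of all 13 mRNAs had been seen, and the shares were not tested.

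On neither scale was another mRNA share separate in the same direction in all 4 cultures. The share of mt-Nd2 was lower after KCl without overlap at DIV7, in NT and in KO+vector on both scales. As deposited it was at 4.48% and 4.50% at rest against 4.30% and 4.22% after KCl at DIV7. In NT it was at 4.85% and 4.76% against 4.58% and 4.74%, and in KO+vector at 4.69% to 5.25% against 4.36% to 4.63%. In KO+WT it overlapped, at 4.98% and 4.44% against 4.35% to 4.60%. mt-Nd1 as deposited was lower after KCl at DIV7 (6.61% and 6.65% against 6.31% and 6.43%), in KO+vector (5.76% to 6.21% against 5.19% to 5.35%) and in KO+WT (5.76% to 6.33% against 5.24% to 5.56%), but in NT the KCl libraries, at 5.97% and 5.996%, lay between the rest libraries. With copies added, 4 of the 13 shares were lower and 5 higher without overlap at DIV7, 4 and 2 in NT, 5 and 2 in KO+vector, and 3 and 1 in KO+WT. Separate groups were common over all genes tested, measured on levels and not on shares. At DIV7 30.7% of genes were separate and lower and 28.5% separate and higher. These were 16.8% and 16.7% in NT, 7.49% and 8.21% in KO+vector, and 10.4% and 11.3% in KO+WT. Shares of a fixed total are not independent of each other.

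At DIV7 the measured levels of the 2 rRNAs rose after 30 min of KCl and the mRNAs did not pass the test. These libraries were poly(A)-selected, so the amount of an rRNA and its tail cannot be told apart. mt-Rnr2, the 16S rRNA, was at 741 and 738 CPM at rest and at 1259 and 1130 CPM after KCl. Both KCl libraries lay well above both rest libraries. The log2 fold change was 0.69 (SE 0.053, 95% interval 0.57 to 0.82, edgeR adjusted p = 5.34e-04), with group means of 740 ± 1.85 and 1195 ± 91.2 CPM (SD, n = 2). mt-Rnr1, the 12S rRNA, was at 416 and 399 CPM at rest and 489 and 458 CPM after KCl, again without overlap, and rose by less, with a log2 fold change of 0.22 (SE 0.047, 95% interval 0.11 to 0.33, edgeR adjusted p = 0.0215). These were the 2 members called of 27 tested, in a comparison that called 17% of all genes tested and called 7.34% higher. The call on mt-Rnr1 was lost without rest library 1 (0.25, edgeR adjusted p = 0.0509), rest library 2 (0.19, 0.0975) or KCl library 1 (0.17, 0.101). The ratio of mt-Rnr2 to mt-Rnr1 in TPM was 0.961 and 0.998 at rest and 1.39 and 1.33 after KCl.

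The 7 complex I mRNAs all had negative log2 fold changes at DIV7, from -0.07 for mt-Nd4 to -0.21 for mt-Nd5, and none passed edgeR's test. Over the 13 mRNAs the median log2 fold change was -0.07, against -0.00141 over all genes, 9 were negative, and 5 of 13 had an unadjusted p under 0.05, all of complex I, where 31.6% of all genes did. That median was -0.000251 without rest library 1 and -0.13 without rest library 2. mt-Nd4l was the nearest to a call, at 391 and 373 CPM at rest and 348 and 345 CPM after KCl (log2 fold change -0.14, edgeR adjusted p = 0.0588). mt-Nd1 was at 2086 and 1997 CPM at rest and 1887 and 1934 CPM after KCl. mt-Co1 went the other way, with 7869 and 7413 CPM at rest and 8021 and 7903 CPM after KCl (0.06, edgeR adjusted p = 0.277). The KCl libraries were below the rest libraries without overlap for 5 mRNAs, above for 1 and overlapping for 7; over all genes tested 30.7% were separate and lower, 28.5% separate and higher and 40.9% overlapping.

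For mt-Nd3 the copy decided the call. As deposited it was at 195 and 183 CPM at rest and 173 and 160 CPM after KCl, a log2 fold change of -0.18 with an edgeR adjusted p of 0.0700. With Gm28438 added it was at 256 and 256 CPM at rest and 205 and 204 CPM after KCl, and it fell by 0.32 on the log2 scale (SE 0.039, edgeR adjusted p = 0.00299). With the copies added mt-Nd3 thus joined the 2 rRNAs as the third gene called.

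None of the 31 members tested at DIV18 passed edgeR's test for KCl in any of the 3 cultures that hold both states. The same test called few genes there at all: 0.00955% in NT, 0.0716% in KO+vector and 0.043% in KO+WT. At an unadjusted p under 0.05 there were 1, 10 and 4 of 31 members, against 4.33%, 10.3% and 4.97% of all genes, and DESeq2 called 0 members in each. mt-Rnr2, which rose at DIV7, was at 18294 and 18615 CPM in NT rest and 18214 and 27448 CPM in NT KCl, a log2 fold change of 0.31 with a 95% interval of -0.39 to 1.01. It was 0.02 (-0.55 to 0.60) in KO+vector and 0.03 (-0.61 to 0.67) in KO+WT.

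In KO+vector all 13 mRNAs had negative log2 fold changes for KCl, with a median of -0.37. mt-Nd1 was at 2332, 1637 and 3210 CPM at rest and at 1803, 1547 and 1800 CPM after KCl, with a log2 fold change of -0.48 (SE 0.18, edgeR adjusted p = 0.378). Rest library 3 was the highest and rest library 2 lay among the KCl libraries, and for none of the 13 mRNAs were the states separate. Without rest library 3 the median was -0.09 and 11 of 13 were negative, and without rest library 2 it was -0.59. Among the mRNAs mt-Co2 had the largest difference, -0.86 (edgeR adjusted p = 0.343), which was -0.45 with Gm28661 added, and mt-Nd3 was at -0.55 as deposited and -0.65 with its copy (edgeR adjusted p = 0.341). mt-Co1 stood at -0.05. Without the filter on low counts 13 members passed the test in this culture, where 515 genes passed in place of 15.

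As deposited, the levels of mt-Co3, mt-Nd5 and mt-Nd6 were lower in both NT KCl libraries than in both NT rest libraries, as were 16.8% of all genes, and the other 10 mRNAs overlapped, as did all 13 in KO+WT. With Gm28437 added the mt-Co3 groups overlapped too, at 3602 and 2877 CPM at rest and 3305 and 3542 CPM after KCl, and the log2 fold change went from -0.20 to 0.08. The medians over the 13 mRNAs were 0.01 in NT and -0.01 in KO+WT, and both changed sign when a library was left out, from -0.06 to 0.14 in NT and from -0.26 to 0.12 in KO+WT. The KCl response in KO+vector minus that in NT was negative for 13 of 13 mRNAs with a median of -0.41, and the response in KO+WT minus that in KO+vector was positive for 13 of 13 with a median of 0.33; the 2 differences share the KO+vector libraries. No member was called for either difference by edgeR or DESeq2, 1 had an unadjusted p under 0.05 in each, and 0% of all genes was called. Over all 20940 genes tested, 1845 and 768 had an unadjusted p under 0.05. Without KO+vector rest library 3 the medians were -0.13 and 0.04.

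**Figure D4:**
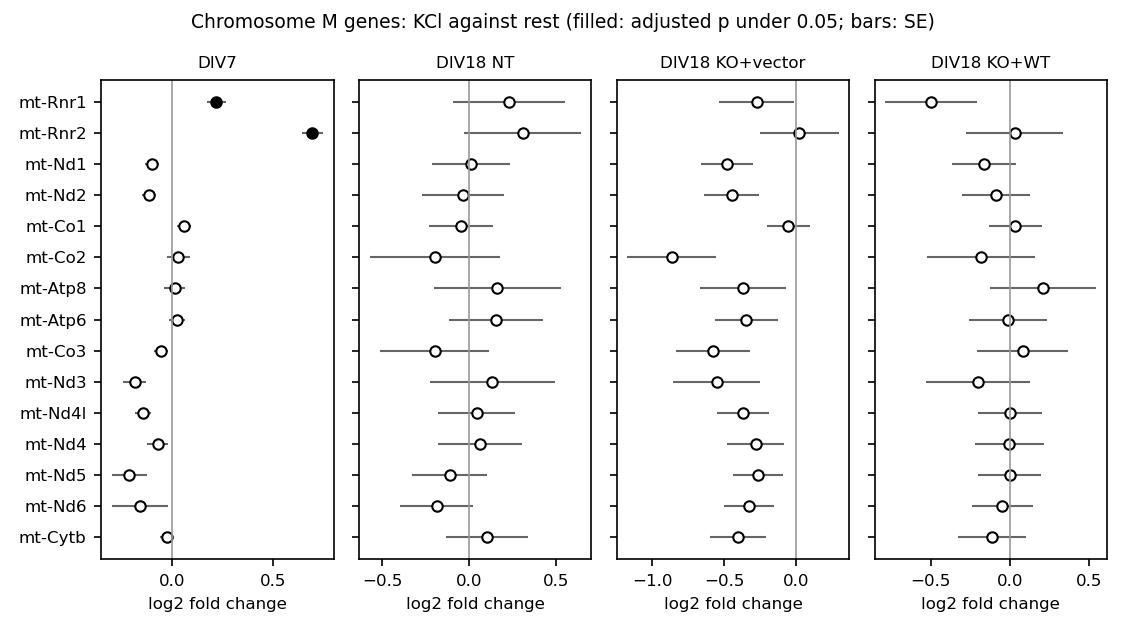
Log2 fold change of KCl against rest (x axis) with its standard error for the 13 mRNAs and 2 rRNAs at DIV7 and in the NT, KO+vector and KO+WT cultures at DIV18; filled points have an edgeR adjusted p under 0.05. The filled points are mt-Rnr1 (0.22) and mt-Rnr2 (0.69) at DIV7; all 13 mRNAs lie below 0 in KO+vector.

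The 12S rRNA went in opposite directions in DIV7 and in KO+WT neurons, but only the DIV7 change was called. In KO+WT, mt-Rnr1 was at 1571 and 1411 CPM at rest and at 916, 948 and 1304 CPM after KCl. Every KCl library was below every rest library, with a log2 fold change of -0.50 (SE 0.29, edgeR adjusted p = 0.977). Of all genes tested, 10.4% were separate and lower in KO+WT, and 28.5% were separate and higher at DIV7. In NT mt-Rnr1 was at 1271 and 1367 CPM at rest and 1139 and 1952 CPM after KCl, and in KO+vector at 1328, 1377 and 1600 CPM at rest and 1682, 1272 and 605 CPM after KCl. Those groups overlapped. The ratio of mt-Rnr2 to mt-Rnr1 in TPM at DIV18 ran from 3.94 in KO+vector rest library 2 to 12.8 in KO+vector KCl library 3, far above the DIV7 ratios. In KO+WT it was 7.20 and 7.33 at rest and 10.96, 9.40 and 10.9 after KCl, without overlap.

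Loss of Smarcc2 did not change any mitochondrial mRNA past the test. Comparing KO+vector with NT at rest, edgeR called 1 of 31 members, against 5.9% of all genes tested, of which 3.77% were lower. The member was mt-Tq, the glutamine tRNA gene (chromosome M 3772 to 3842, minus strand), with 32 and 24 counts in NT and 8, 10 and 6 counts in KO+vector. Every knockout library was below every control library, as for 18.2% of all genes tested. The level of mt-Tq was 0.447 ± 0.0740 CPM (SD, n = 3) against 1.23 ± 0.182 (n = 2), a log2 fold change of -1.44 (SE 0.41, edgeR adjusted p = 0.0462). The call did not hold with DESeq2 (adjusted p = 0.0691) or when any of the 5 libraries was left out (edgeR adjusted p = 0.0696 to 0.230), and the counts are few. Its sequence is shown here from the GENCODE M21 transcripts.
mt-Tq: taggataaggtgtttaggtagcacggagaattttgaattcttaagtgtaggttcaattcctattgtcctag

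Of the 13 mRNAs, 12 had positive log2 fold changes in KO+vector against NT at rest, with a median of 0.16, and only mt-Nd3 (-0.37, or -0.12 with its copy) was negative. Without KO+vector rest library 3 the median was -0.13 and 3 were positive. Among the mRNAs mt-Co2 showed the largest value, at 505 and 344 CPM in NT and 489, 499 and 1273 CPM in KO+vector, with a log2 fold change of 0.83 (edgeR adjusted p = 0.185). With Gm28661 added it was 0.24, and in these sums, 3122 and 2419 CPM against 3108, 2216 and 4504 CPM, the groups overlapped. mt-Rnr2 was at 9757 CPM in KO+vector rest library 2 and at 25917 CPM in library 3, with both NT libraries between them.

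After KCl the same contrast called 0 of 31 members with edgeR, against 2.67% of all genes. An unadjusted p under 0.05 was found for 4 of 31, against 16.6% of all genes, and DESeq2 called 1. The largest mRNA difference was in mt-Nd3, at 81.4 and 110 CPM in NT and 64.5, 41.0 and 32.1 CPM in KO+vector, without overlap (log2 fold change -1.05, edgeR adjusted p = 0.0965). Of all genes tested, 18.5% were separate and lower in this contrast. With Gm28438 added the sums were 159 and 217 CPM against 140, 106 and 125 CPM, still without overlap, and the difference was -0.61 (edgeR adjusted p = 0.231). In a fit of these 2 groups alone mt-Nd3 as deposited passed (-1.04, edgeR adjusted p = 0.0454). The gene DESeq2 called was mt-Ts1, a serine tRNA, at -0.84 (adjusted p = 0.0264), where edgeR gave an adjusted p of 0.0999. The astrocyte list was at 356 to 724 CPM in NT KCl and 190 to 263 in KO+vector KCl, and its part in these differences was not tested.

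Adding back wild-type Smarcc2 changed no member past the test. Against KO+vector, KO+WT had 0 of 31 members called at rest, where edgeR called 0.0143% of all genes and 1 member had an unadjusted p under 0.05, against 11.1% of all genes. After KCl it had 0 called, against 0.00955% of all genes, with 4 members at an unadjusted p under 0.05, against 3.99% of all genes, and DESeq2 called 0 in both states. After KCl 13 of 13 mRNAs were positive with a median of 0.22, and without KO+WT KCl library 3 the median was 0.04 with 8 positive. mt-Nd3 stood at 0.84 and mt-Co2 at 0.67 as deposited (edgeR adjusted p = 0.999 for both), and at 0.40 and 0.28 with their copies. At rest 2 of 13 were positive and the median was -0.12, and without KO+vector rest library 3 all 13 were positive with a median of 0.22.

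Against NT, with which KO+vector was also compared, KO+WT had 0 members called at rest (0.105% of all genes) and 0 after KCl (0.201% of all genes). DESeq2 called 0. An unadjusted p under 0.05 was found for 2 members at rest, against 7.88% of all genes, and for 3 after KCl, against 11%. Among the mRNAs mt-Co2 had the largest difference in both states, at 0.82 and 0.83 as deposited. With the copy added these became 0.19 and -0.07.

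**Figure D5:**
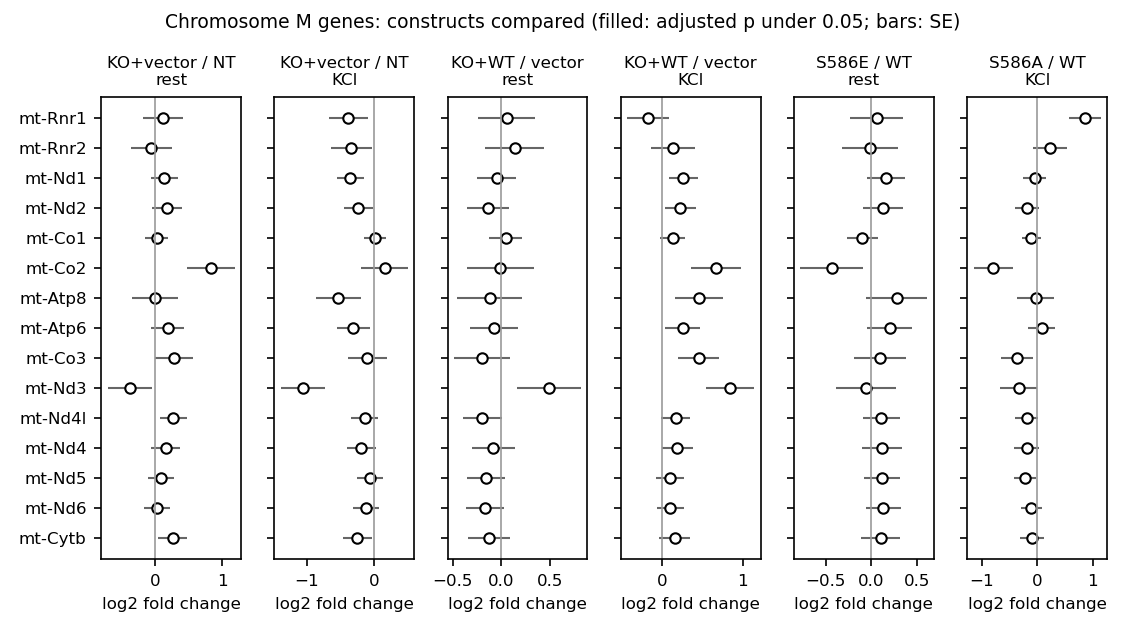
Log2 fold change between constructs within a state (x axis), with its standard error, for the 13 mRNAs and 2 rRNAs in 6 comparisons at DIV18. No mRNA or rRNA has an edgeR adjusted p under 0.05; mt-Nd3 in KO+vector against NT after KCl (-1.05) is the largest of these differences.

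The S586E and S586A forms carry glutamate or alanine in place of a serine of the Smarcc2 protein. The S586E form was compared with wild-type at rest and the S586A form after KCl, the states in which each has libraries. KO+S586E had 0 of 31 members called against KO+WT by edgeR, which called 0% of all genes, and DESeq2 called 0. An unadjusted p under 0.05 was found for 1 member, against 12.9% of all genes. The median over the mRNAs was 0.11 with 10 of 13 positive. mt-Co1 was at 13401, 13754 and 14409.8 CPM in KO+S586E and 13971 and 15726 CPM in KO+WT, with overlap, a difference of -0.10 with a 95% interval of -0.45 to 0.25. mt-Rnr1 differed by 0.06 (-0.56 to 0.67). Such intervals leave room for differences of either sign. Against KO+vector, KO+S586E had 0 called by edgeR (0.0191% of all genes) and 0 by DESeq2. There 1 member had an unadjusted p under 0.05, against 7.45% of all genes.

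KO+S586A after KCl had 0 of 31 members called against KO+WT by edgeR, which called 0% of all genes, and DESeq2 called 0. An unadjusted p under 0.05 was found for 5 members, against 8.71% of all genes. The largest rRNA difference was in mt-Rnr1, at 1638 and 2182 CPM in KO+S586A and 916, 948 and 1304 CPM in KO+WT. Both KO+S586A libraries were above all KO+WT libraries, as for 11.9% of all genes tested. The log2 fold change was 0.85 (SE 0.29, 95% interval 0.25 to 1.46, edgeR adjusted p = 0.498). The mRNAs had a median of -0.18 with 12 of 13 negative, and the median changed sign without KO+S586A library 1 (0.07) or KO+WT KCl library 3 (0.03). mt-Co2 was at -0.80 as deposited and at -0.03 with its copy. mt-Ts1 was at 33.1 and 38.9 CPM in KO+S586A against 19.4, 18.9 and 22.8 CPM in KO+WT and 23.6, 17.6 and 9.32 CPM in KO+vector. Against KO+vector, edgeR called 0 members, against 0.00955% of all genes. There 6 members had an unadjusted p under 0.05, against 13% of all genes. DESeq2 called 1 member, mt-Ts1, with a log2 fold change of 1.09 (DESeq2 adjusted p = 0.00824, edgeR adjusted p = 0.133).

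The tRNA reads came mostly from the minus-strand genes. The 8 minus-strand tRNA genes held 82.6% to 87.7% of all tRNA counts at DIV7 (628 to 791 tRNA counts a library) and 87.2% to 96.4% at DIV18 (745 to 2562 counts). mt-Tp, the proline tRNA gene (chromosome M 15356 to 15422, minus strand), had the highest summed count of the 22 over each kind of library, with 310 to 378 counts or 44.9% to 49.4% at DIV7 and 463 to 928 counts or 27.2% to 63.8% at DIV18. mt-Ts1 (6870 to 6938, minus strand) held 10.99% to 11.9% at DIV7 and 19.2% to 39.3% at DIV18, without overlap, and had more counts than mt-Tp in 3 of the 20 DIV18 libraries, while mt-Te held 4.59% to 7.98% and 6.58% to 17.1%. A library of ordinary fragment size does not capture a mature tRNA well, and no strand setting of the counting is given in the sources used here, so reads of precursors, of the opposite strand and of mature tRNAs cannot be told apart. Their estimated effective lengths, 20.9 to 26.0 bases at DIV7 and 10.8 to 18.3 at DIV18, were too short for a comparison per length. At DIV7 0 of 12 tRNA genes tested were called for KCl by edgeR or DESeq2, where edgeR called 17% of all genes. An unadjusted p under 0.05 was found for 2 of the 12, against 31.6% of all genes. These were mt-Ty, the tyrosine tRNA gene, at 0.70 (edgeR adjusted p = 0.140) and mt-Tc, the cysteine tRNA gene, at 0.66 (0.125). The 2 leading tRNAs are shown from the GENCODE M21 transcripts.
mt-Tp: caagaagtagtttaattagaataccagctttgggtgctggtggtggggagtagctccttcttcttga
mt-Ts1: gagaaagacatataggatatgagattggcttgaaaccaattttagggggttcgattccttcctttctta

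The nuclear genes that replicate, transcribe and process chromosome M were described beside it, as a list of 40, all of them tested. At DIV7 edgeR called 7 of them after KCl, all lower, where 17% of all genes were called and 9.67% were called lower. An unadjusted p under 0.05 was found for 17 of the 40, against 31.6% of all genes. The median over the 40 was -0.13, against -0.00141 over all genes. Of 8 transcription genes 3 fell. Mterf1a is a termination factor that binds within the leucine tRNA gene next to mt-Rnr2. It went from 4.07 and 3.91 CPM to 1.32 and 1.82 CPM, a log2 fold change of -1.35 (edgeR adjusted p = 0.00790). Its counts were few, 116 and 97 at rest and 39 and 50 after KCl. Mterf1b, also on the list and not called, had 50 and 55 counts at rest and 36 and 19 after KCl. Whether reads were shared between Mterf1a and Mterf1b was not tested. Mterf4, which takes part in assembly of the mitochondrial ribosome, fell by 0.64 on the log2 scale (0.00788). Polrmt, the RNA polymerase itself, went from 33.3 and 32.9 CPM to 25.6 and 27.9 CPM (-0.31, edgeR adjusted p = 0.0321).

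Of 19 processing genes 4 were called lower at DIV7, where 17% of all genes were called and 9.67% were called lower. Fastkd3, of a family of RNA-binding proteins that act on mitochondrial transcripts, fell by 0.93 on the log2 scale (edgeR adjusted p = 0.0124), and Tbrg4, of the same family, by 0.40 (0.0286). Trmt10c, a subunit of the mitochondrial RNase P that cuts tRNA 5′ ends, fell by 0.54 (edgeR adjusted p = 0.0185), and Pde12, which shortens poly(A) tails in mitochondria, by 0.26 (0.0430). None of the 7 replication genes and none of the 6 regulators was called in that comparison.

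At DIV18 a single member of this list was called in the 15 comparisons. Polg, the catalytic subunit of the mitochondrial DNA polymerase, was at 42.7 and 54.4 CPM in NT rest and at 30.9, 33.4 and 37.2 CPM in KO+vector rest. The groups did not overlap, and 18.2% of all genes tested were likewise separate and lower. The log2 fold change was -0.52 (edgeR adjusted p = 0.00593), 1 call among the 40 in a comparison that called 3.77% of all genes lower. No other gene of the 40 passed edgeR's test in that comparison or in the other 14.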

How the data were processed

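Per the submitters' processing notes, reads were handled with FastQC, cutadapt and kallisto; versions, index, genome build and strand setting are not given in the sources used here. The authors deposited, for each of the 24 libraries, estimated counts, TPM and an effective length per transcript. Transcript identifiers were matched to GENCODE M21 (GRCm38); unmatched transcripts held at most 0.4674% of counts. The deposited estimated counts of a gene's transcripts were added up and rounded to whole numbers. The main test was edgeR 4.0.16's quasi-likelihood test (R 4.3.3; TMM scaling, filterByExpr, Benjamini-Hochberg adjustment over all genes). DIV7 was fitted alone (19822 genes, 2 residual degrees of freedom), and the 8 DIV18 groups together (20940 genes, 12 residual degrees of freedom). No library pair was identical. Nuclear copies were found with BLAST 2.17.0. The alternatives were DESeq2 1.42.0, median-of-ratios scaling, scaling without chromosome M, no low-count filter, a replicate block, fits of the compared groups alone, leaving out each library and, added after seeing the data, nuclear copies in the shares. The test was checked on simulated counts.

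The genes named are all 13 mRNAs and both rRNAs, tRNAs called or highest in count, called genes of the nuclear list and the nuclear copies. In addition, mt-Ts1, mt-Tc, mt-Ty, mt-Te and Mterf1b were named after their values were seen. The members and lists were chosen with earlier results of these data known. Replicate numbers were checked by the correlation of same-numbered libraries' deviations from their group means. By this check they paired libraries in KO+WT against KO+vector after KCl (0.11 to 0.24) and in KO+S586E against KO+vector at rest (0.10 to 0.29), where the block changed no call on a member. Each embryo's cortex is a replicate per the labels' protocols; the labels do not say which libraries share an embryo.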

Additional observations from a re-analysis of the deposited data

Results flagged for a closer look

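The response of mt-Rnr1, the 12S rRNA, to KCl went in opposite directions in 2 cultures. The log2 ratio of mean CPM, KCl over rest, was 0.22 at DIV7, where both KCl libraries were above both rest libraries, and -0.50 in KO+WT neurons at DIV18, where all 3 KCl libraries were below both rest libraries. The response was picked out because the groups did not overlap in either culture and the signs differ. Of all genes tested, 28.5% were separate and higher at DIV7 and 10.4% separate and lower in KO+WT. The KO+WT change was not called (edgeR adjusted p = 0.977). The difference was not tested, and library kind, age and construct cannot be told apart.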

How the results depend on the processing

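Counts of chromosome M genes called by edgeR depended most on the filter on low counts. Without it the counts were 7 at DIV7 (2 with it), 13 for KCl in KO+vector and 1 in KO+WT (0 with it) and 0 in NT, as before. For KO+vector against NT they were 2 at rest (1) and 8 after KCl (0), for KO+WT against KO+vector 1 and 5 (0 and 0), for KO+WT against NT 1 and 4 (0 and 0). They were 2 for KO+S586E against KO+WT and 3 against KO+vector, 4 for KO+S586A against KO+WT and 6 against KO+vector, 7 for the KCl response in KO+vector minus NT and 3 for KO+WT minus KO+vector, all 0 with it. Counts over all genes also moved, from 15 to 515 for KCl in KO+vector, from 1236 to 2016 for KO+vector against NT at rest and from 560 to 1437 after KCl; the cause was not tested. DESeq2 called 0 members for KO+vector against NT at rest and 1 after KCl, and 1 for KO+S586A against KO+vector. Fits of the compared groups alone called 0 for KO+vector against NT at rest (225 genes in all) and 1 after KCl. Leaving out a library gave 1 to 2 calls at DIV7, 0 to 0 for KO+vector against NT at rest and 0 to 1 after KCl. With a replicate block, DIV7 gave 10 called members and 5857 genes in place of 3371, although the replicate numbers there did not pair the libraries (correlation 0.02), and KO+vector against NT at rest gave 0. Median-of-ratios scaling, scaling without chromosome M and added copies left all 16 counts within 1.5 times. Neither mt-Rnr1 and mt-Rnr2 at DIV7 nor mt-Tq in KO+vector against NT at rest changed sign under these settings. The median log2 fold change of the 13 mRNAs was less stable: it changed sign in 16 of 91 fits with a library left out, in 9 comparisons, and in 7 of 111 under the other settings, in 5 comparisons. With the block it went from 0.16 to -0.02 for KO+vector against NT at rest and from -0.12 to 0.09 for KO+WT against KO+vector at rest. With copies added, mt-Co2 in KO+WT against NT after KCl went from 0.83 to -0.07.

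The mRNA share of counts at DIV7, 2.79%, was 7.13% of TPM and 2.93% with copies added. The rRNA share, 0.140% at DIV7 and 2.09% at DIV18, was 0.226% and 1.27% of TPM, and 0.129% to 0.148% at DIV7 when a library was left out. The mt-Co1 share of mRNA, 14.3% at DIV7 and 22.1% at DIV18, was 27.8% and 38.2% of counts and 13.2% and 19.1% with copies added, and 14.05% to 14.45% at DIV7 when a library was left out. The mt-Co2 share, 10.0% and 2.23%, was 6.85% and 1.43% of counts and 14.6% and 10.6% with copies added. No tRNA gene exceeded 928 counts in a library, which limits the precision of their values.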
